A study of Homo sapiens with 19 samples.

Results

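HOX genes encode homeobox transcription factors that pattern the body axis of the embryo, and they lie in 4 clusters, HOXA, HOXB, HOXC and HOXD. Genes of the same number in different clusters are paralogues, and their order along the chromosome follows the order in which they are used along the axis. In blood, HOXA and HOXB genes are active in stem and early progenitor cells and are shut down during maturation, and sustained HOXA9 and HOXA10 with the cofactor MEIS1 is a hallmark of leukaemias with KMT2A rearrangement or NPM1 mutation. Silent HOX clusters are typically held by Polycomb complexes, whereas active ones carry H3K27ac, the acetylated form of lysine 27 on histone H3 that marks promoters and enhancers in use.

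The members are the HOX genes of the 4 clusters, taken by name and position, and were chosen with earlier results of these data known. Of the 39 HOX genes of the 4 clusters, 38 were analysed, namely 10 of HOXA, 10 of HOXB, 9 of HOXC and 9 of HOXD, among 20033 protein-coding genes annotated on the autosomes, X and Y. One gene of the A cluster was not analysed here. The data were H3K27ac ChIP-seq peak lists of 4 human leukaemia lines, with 1 library per line and no replicates. HL-60 and Molm13 were wild-type cells of acute myeloid leukaemia, and OCI-AML3, also of acute myeloid leukaemia, and K562, of chronic myelogenous leukaemia, were control cells of a CRISPR interference experiment. Both control lines carried a lentiviral dead Cas9 fused to the KRAB repressor domain, expressed from the SFFV promoter, with an sgRNA vector that held no guide. As general background, Molm13 carries a KMT2A-MLLT3 fusion, OCI-AML3 an NPM1 mutation and K562 the BCR-ABL1 fusion.

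The lists held 37484 peaks in K562, 37606 in OCI-AML3 and 35206 in Molm13, against 20814 in HL-60. The HL-60 list was the shortest and covered 24.1 Mb, against 58.2 to 76.8 Mb for the other lines. Read numbers were not in the lists, so the depth behind each list was unknown. With 1 library per line there was no spread between replicates and no test between lines, and line, vector and library cannot be told apart. All 7 erythroid marker genes counted, among them GATA1, KLF1 and TAL1, had a peak at a start site in K562, against 1 of 7 (EPOR) in each of the other lines. Of 8 myeloid markers, all 8 had one in Molm13 and in OCI-AML3, whereas 6 had one in HL-60 and 4 in K562, where CEBPA, CEBPE, MPO and ELANE had none. Of 7 lymphoid markers, 1 or 2 had one in each line, CD79A in all 4, IL7R in Molm13 and OCI-AML3 and PAX5 in HL-60, and the T cell genes CD3D, CD3E and CD2 and the B cell gene MS4A1 in none.

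The 4 clusters, given by the first and last base of the members in hg38, were HOXA at chr7:27100354-27200091, HOXB at chr17:48528526-48728750, HOXC at chr12:53938831-54056030 and HOXD at chr2:176092721-176190907. The promoters below, from RefSeq on GRCh38.p14, span 250 bases before to 50 bases after a start site and are written 5′ to 3′ along the gene, with each CG dinucleotide in capitals. HOXA9 is shown as the gene most often tied to leukaemia, and the others because the members of paralogue group 4 differed between clusters in the lines that marked them. They were chosen after their values were seen. HOXB4, the remaining member of that group, had no entry in the table used.
HOXA9, chr7:27165488-27165787, minus strand: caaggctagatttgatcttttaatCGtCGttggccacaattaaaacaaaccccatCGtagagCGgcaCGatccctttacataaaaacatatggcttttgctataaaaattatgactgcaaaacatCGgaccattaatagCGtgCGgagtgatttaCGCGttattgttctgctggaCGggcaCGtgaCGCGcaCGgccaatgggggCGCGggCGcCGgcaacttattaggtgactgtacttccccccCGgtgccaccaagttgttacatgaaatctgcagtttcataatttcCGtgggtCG
HOXA4, chr7:27130708-27131007, minus strand: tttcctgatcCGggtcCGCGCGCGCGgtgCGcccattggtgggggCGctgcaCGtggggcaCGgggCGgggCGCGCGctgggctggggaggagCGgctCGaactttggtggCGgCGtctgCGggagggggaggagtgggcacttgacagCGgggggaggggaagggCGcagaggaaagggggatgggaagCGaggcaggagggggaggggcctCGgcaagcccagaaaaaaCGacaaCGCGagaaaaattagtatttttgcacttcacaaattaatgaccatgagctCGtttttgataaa
HOXC4 and HOXC5, chr12:54016638-54016937, plus strand: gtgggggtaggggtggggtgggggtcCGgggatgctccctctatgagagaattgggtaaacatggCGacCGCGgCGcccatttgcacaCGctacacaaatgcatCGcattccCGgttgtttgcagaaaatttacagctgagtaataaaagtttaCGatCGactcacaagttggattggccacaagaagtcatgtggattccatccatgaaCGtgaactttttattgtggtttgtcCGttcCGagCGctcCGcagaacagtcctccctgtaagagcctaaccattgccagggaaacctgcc
HOXD4, chr2:176151300-176151599, plus strand: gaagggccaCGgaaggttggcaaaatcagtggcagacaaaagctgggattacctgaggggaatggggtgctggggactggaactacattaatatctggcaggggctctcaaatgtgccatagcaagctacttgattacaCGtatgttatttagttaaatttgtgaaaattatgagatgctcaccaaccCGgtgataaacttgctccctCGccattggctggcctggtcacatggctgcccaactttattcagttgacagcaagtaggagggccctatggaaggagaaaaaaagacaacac

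The HOXA9 promoter held 22 CG dinucleotides and lay wholly, 300 of 300 bases, inside a peak in Molm13 and in OCI-AML3, and 0 bases of it were covered in HL-60 and in K562. The HOXA4 promoter held 27 and was covered in none of the lines, and its start site lay 253 bp from the nearest Molm13 peak. The promoter shared by HOXC4 and HOXC5 held 15, and 56 of its bases, including the start site, lay in a K562 peak. The HOXD4 promoter held 4, and the nearest peak was between 116787 and 117882 bp away in the 4 lists. The median over all 35116 RefSeq promoters of this length was 14. On either strand, the HOXC promoter held the letters CCAAT at 2 places and the other promoters at 1 each, as did 34.6% of all promoters at 1 or more places. Of the printed promoters, TATAAA was found only in that of HOXA9 and GGGCGG only in that of HOXA4, against 11.5% and 45.0% of all promoters. TGATTNAT, a form of the joint HOX and PBX site, was in none of the printed promoters and in 2.82% of all. A match to any of these motifs describes the sequence only. Since 20 of 38 members (52.6%) had a promoter entry, below the 80% set for such a check, CG content was not compared across the members.

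To ask which HOX genes carried the mark, a gene was counted, and is called marked, when any of its GENCODE start sites lay within 500 bp of a peak. OCI-AML3 had 12 such members, K562 had 9, Molm13 had 8 and HL-60 had none. The shares of the 38 members were 31.6% in OCI-AML3 (Wilson 95% interval 19.1 to 47.5), 23.7% in K562 (12.99 to 39.2) and 21.1% in Molm13 (11.1 to 36.3), with 0% in HL-60. These intervals cover counting error only and treat members as independent, which neighbours that share a peak are not, so they are too narrow. Over all 20033 protein-coding genes the shares were 55.9% in K562, 57.7% in OCI-AML3 and 53.9% in Molm13, against 44.7% in HL-60, so the share of HOX genes was below that of all genes in each list. The 8 genes of Molm13 lay at 4 distinct peaks, the 12 of OCI-AML3 at 6 and the 9 of K562 at 10.

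The same counts were made under other call rules. With start sites inside a peak, the members counted were 9 in K562 (all genes 51.7%), 11 in OCI-AML3 (54.3%) and 6 in Molm13 (49.7%), with 0 in HL-60 (38.9%). Within 2000 bp they were 11 (58.1%), 15 (59.7%), 10 (56.5%) and 2 (47.2%), in the same order of lines, those of HL-60 being HOXA11 and HOXC10. With canonical start sites only they were 7 (52.1%), 11 (54.0%), 7 (49.9%) and 0 (41.0%). With peaks of q below 0.05 they were 9 (55.7%), 12 (57.4%), 8 (53.7%) and 0 (44.0%), and with q below 0.001 they were 9 (49.5%), 9 (53.3%), 7 (47.4%) and 0 (36.2%). With every list cut to its 20772 most significant peaks, a cut by significance and not by fold, they were 9 (52.5%), 9 (53.0%), 8 (50.1%) and 0 (44.7%). The share of HOX genes was below that of all genes in each of the 4 lines under each of these rules.

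**Figure D1:**
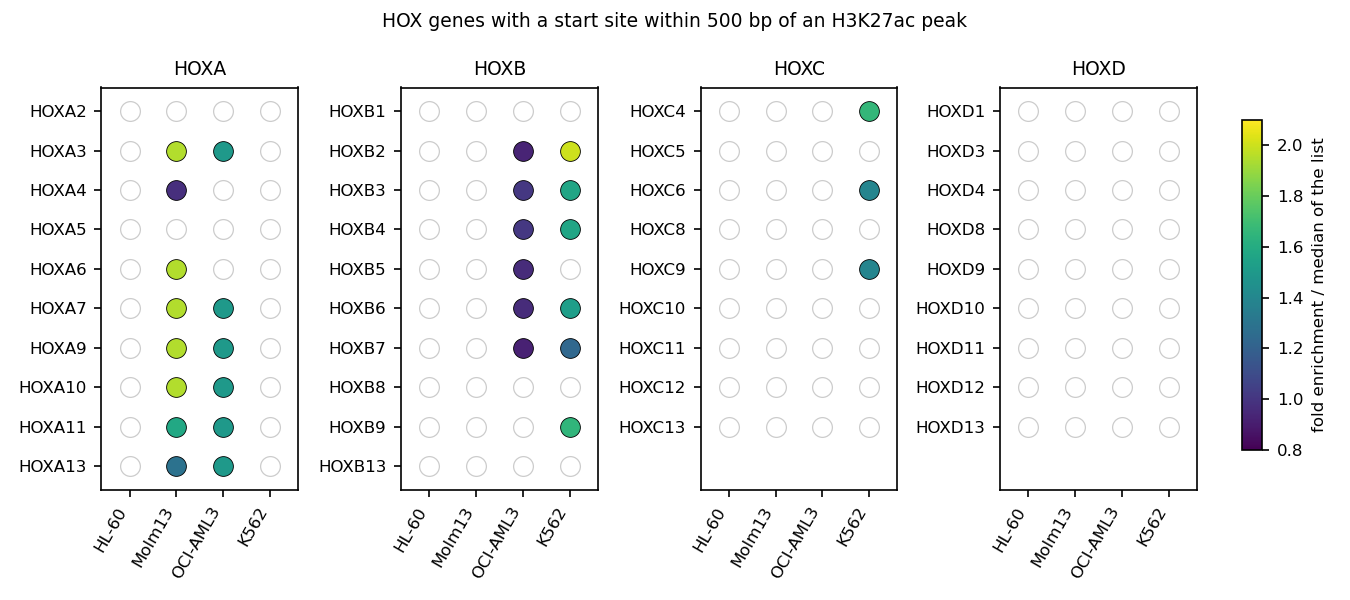
Each circle is a HOX gene (rows, by cluster) in a line (columns), filled where a start site lay within 500 bp of an H3K27ac peak, with the colour giving the fold enrichment of the strongest such peak divided by the median of its list. No circle is filled in HL-60 or in HOXD, Molm13 is filled only in HOXA, OCI-AML3 in HOXA and HOXB, and K562 in HOXB and HOXC.

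The lines differed in which cluster was marked. Molm13 had 8 of 10 HOXA genes (80%, against 53.9% of all protein-coding genes) and none elsewhere. OCI-AML3 had 6 of 10 HOXA and 6 of 10 HOXB genes (60% each, against 57.7%). K562 had 6 of 10 HOXB (60%, against 55.9%) and 3 of 9 HOXC genes (33.3%), and no HOXA gene. The shares of 60% were thus near those of all genes in the same lists. At 500 bp no member was marked in 3 or in all 4 lines, 11 were marked in 2 lines, 7 in 1 line and 20 in none, and Molm13 and K562 shared no marked member. At 2000 bp, 3 members were marked in 3 lines, HOXC4 and HOXC6 in Molm13, OCI-AML3 and K562 and HOXA11 in HL-60, Molm13 and OCI-AML3, so Molm13 and K562 then shared 2. Molm13 and OCI-AML3 shared 6 (HOXA3, HOXA7, HOXA9, HOXA10, HOXA11 and HOXA13), 75% of those of Molm13 and 50% of those of OCI-AML3. OCI-AML3 and K562 shared 5 (HOXB2, HOXB3, HOXB4, HOXB6 and HOXB7), 41.7% and 55.6% of their marked members. HOXA4 and HOXA6 were marked in Molm13 only, HOXB5 in OCI-AML3 only, and HOXB9, HOXC4, HOXC6 and HOXC9 in K562 only. Counts by number of lines and by pair of lines were not made over all protein-coding genes. Whether these overlaps differ from those of all genes was not tested.

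Along the axis order, the anterior genes (paralogue groups 1 to 3) had 1 of 7 marked in Molm13, 3 of 7 in OCI-AML3 and 2 of 7 in K562. The central genes (groups 4 to 8) had 3, 5 and 5 of 15, and the posterior genes (groups 9 to 13) had 4, 4 and 2 of 16. HL-60 had 0 in each class. Over all protein-coding genes the shares were 53.9% in Molm13, 57.7% in OCI-AML3, 55.9% in K562 and 44.7% in HL-60. Every class share was below that of its list, the highest being 42.9% for the anterior genes of OCI-AML3. The 4 posterior genes were the same in Molm13 and in OCI-AML3, namely HOXA9, HOXA10, HOXA11 and HOXA13. In K562 they were HOXB9 and HOXC9. Within paralogue group 9, HOXA9 was therefore marked in Molm13 and OCI-AML3, HOXB9 and HOXC9 in K562, and HOXD9 in none. Groups 1, 8 and 12 had no marked member in any line, and group 1 was counted through 2 members only, HOXB1 and HOXD1. The HOXA gene not analysed is in none of these counts.

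**Figure D2:**
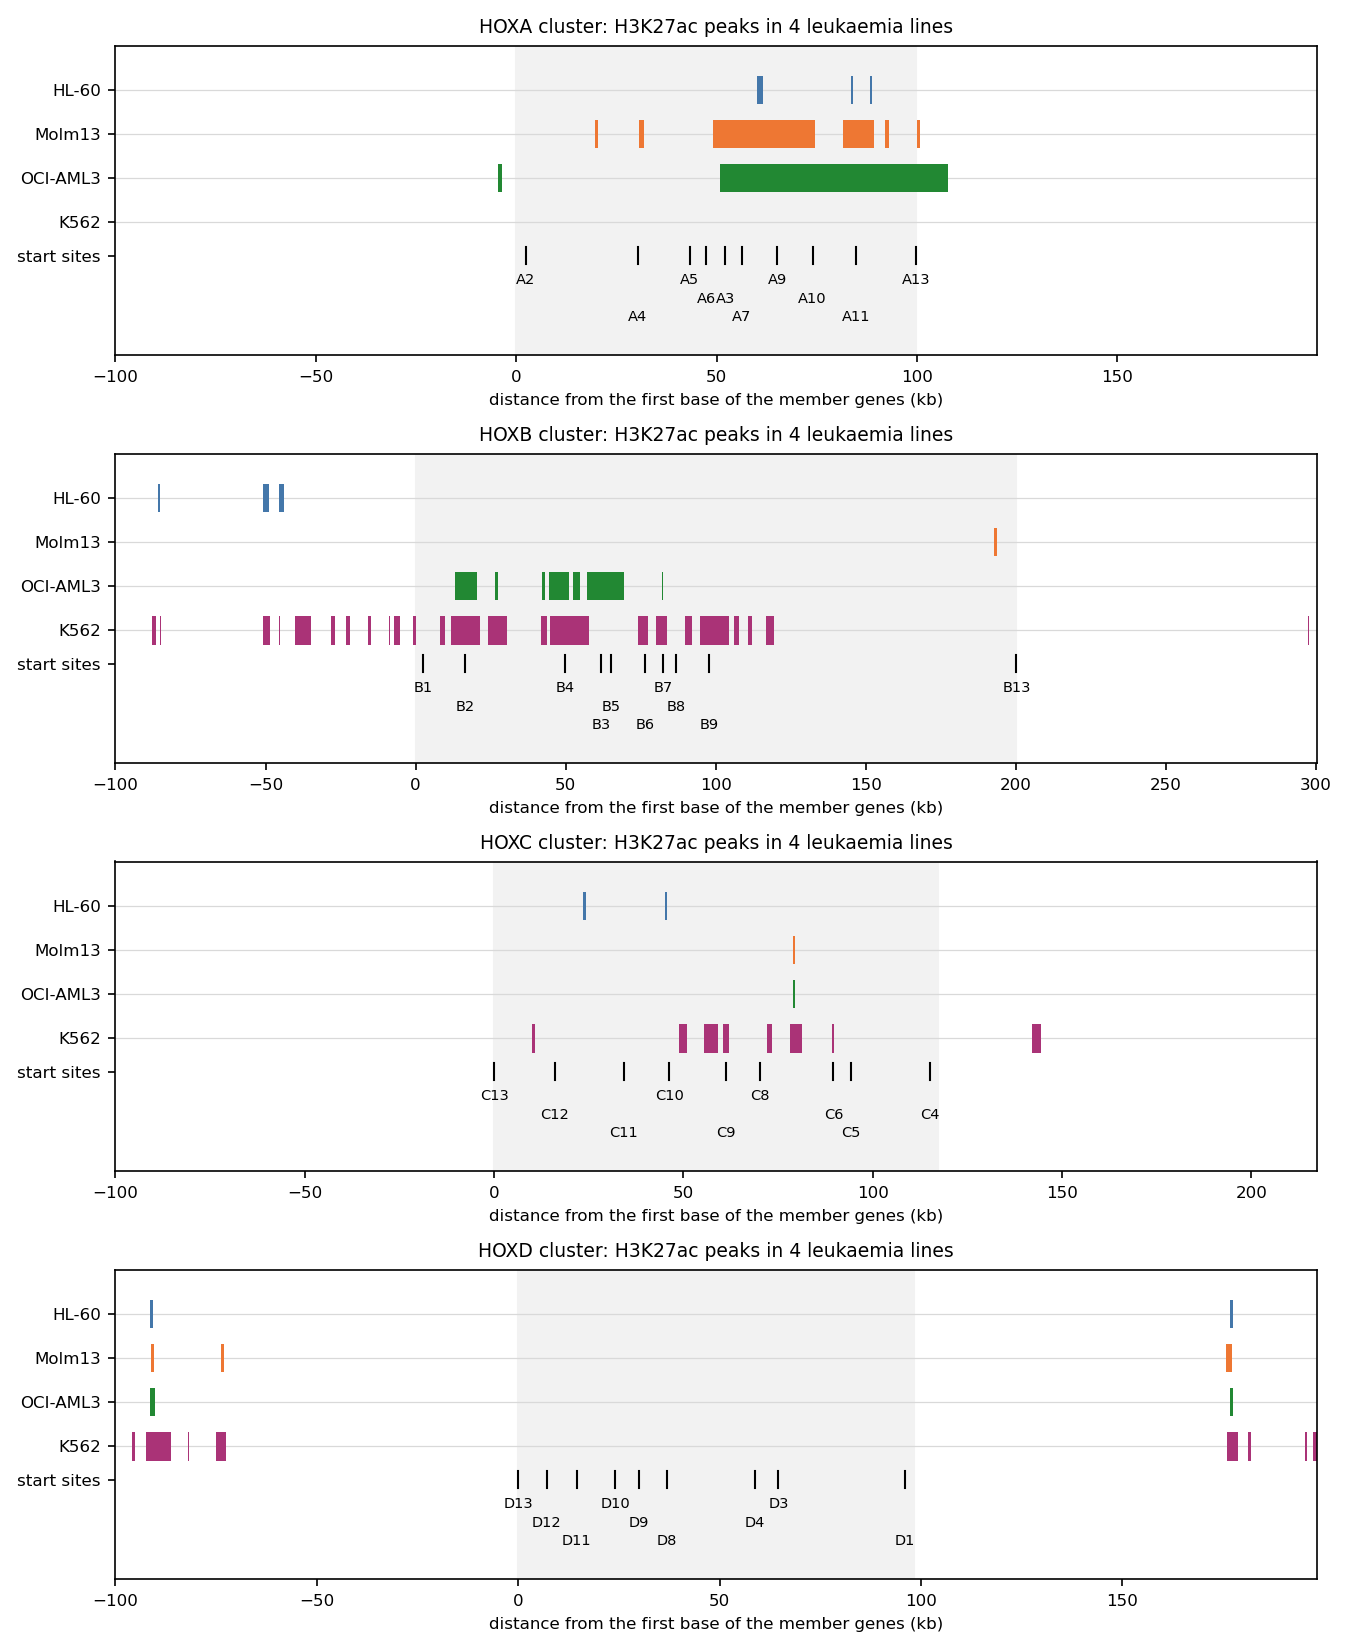
Peaks of the 4 lines (coloured boxes) along each cluster and 100 kb to either side, with the distance in kb from the first base of the members on the x axis, the cluster shaded and the canonical start sites as black ticks labelled by cluster letter and number. The widest box is the OCI-AML3 domain of 57.1 kb over HOXA, K562 has 13 boxes in HOXB and none in HOXA, and the HOXD cluster is empty in all lines.

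The extent of the mark was then measured as the length of each cluster under peaks. HOXA, 99.7 kb long, was covered over 0% in K562, 49.1% in OCI-AML3 and 36.0% in Molm13, with 2.32% in HL-60, against 2.68%, 2.01%, 1.67% and 0.731% of chromosome 7 in the same lists. HOXB, 200.2 kb long, was covered over 28.6%, 15.4%, 0.574% and 0%, in the same order of lines, against 4.83%, 4.15%, 3.74% and 1.51% of chromosome 17. HOXC, 117.2 kb long, was covered over 11.2%, 0.442%, 0.268% and 1.19%, against 3.01%, 2.77%, 2.32% and 1.05% of chromosome 12. HOXD, 98.2 kb long, was at 0% in all 4 lists. Coverage was thus above that of the chromosome for HOXA in Molm13 and OCI-AML3, for HOXB in OCI-AML3 and K562 and for HOXC in K562. In these cases it stayed above it when both were measured with peaks of q below 0.05 or 0.001 or with lists of equal length. HOXB in OCI-AML3 was nearer to its chromosome with q below 0.001 (4.02% against 3.39%) and with equal list lengths (4.02% against 3.35%). In HL-60, HOXA was above its chromosome in the full list (2.32% against 0.731%). It was below it with q below 0.05 (0.424% against 0.651%) and with q below 0.001 (0.424% against 0.441%). HOXC of HL-60, above its chromosome by a narrow margin in the full list, was below it with q below 0.001 (0.374% against 0.675%). Of the HOXA bases covered in Molm13, 32.4 kb (90.3%) were also covered in OCI-AML3, where they made up 66.2%. In HOXB, OCI-AML3 and K562 shared 18.8 kb, which was 60.8% of the OCI-AML3 bases and 32.8% of those of K562.

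OCI-AML3 had a single peak inside HOXA as spanned by the members, a domain at chr7:27151130-27208182. It was 57.1 kb wide and of width rank 3 among the 37571 peaks on the main chromosomes of that list. Its fold enrichment over background, as the peak caller gave it, was 4.42, or 1.498 times the list median, with a −log10 q-value of 11.9. The domain held the canonical start sites of HOXA3, HOXA7, HOXA9, HOXA10, HOXA11 and HOXA13 and ran on over HOTTIP, a long non-coding RNA gene beyond the HOXA13 end of the cluster. It covered the canonical transcripts of HOXA7, HOXA9, HOXA10, HOXA11 and HOXA13 completely. HOXA6, which lies on the other side of its edge, had its nearest start site 527 bp away, just outside the limit of 500 bp. HOXA2, HOXA4 and HOXA5 were 5969, 20350 and 7449 bp from the nearest OCI-AML3 peak. For HOXA2 this was another peak, of 944 bp at HOTAIRM1, 3640 bp outside the span of the members.

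In Molm13 the mark over HOXA was split. The widest peak, at chr7:27149498-27174875, was 25.4 kb wide (width rank 13 of 35136) with a fold of 7.42, or 1.95 times the list median, and a −log10 q of 12.0. It held start sites of HOXA3, HOXA6, HOXA7, HOXA9 and HOXA10. HOXA6 was counted through 1 of its 2 start sites, since its canonical start lay 1724 bp away. A second peak of 7.78 kb at chr7:27181956-27189736 had a fold of 6.01 and a −log10 q of 8.17 and held both start sites of HOXA11. HOXA13 was counted through a peak of 821 bp at chr7:27200344-27201164 with a fold of 4.90 and a −log10 q of 4.70. HOXA4 was counted through a peak of 1126 bp at chr7:27131010-27132135 with a fold of 3.72, 0.977 times the list median, and a −log10 q of 2.50. Both smaller peaks lay 253 bp upstream of the canonical start, and the HOXA4 call was lost at a q-value below 0.001. Between the HOXA4 peak and the widest peak lay 17.4 kb without a peak, which held the canonical starts of HOXA5 and HOXA6. HOXA5 was 5817 bp and HOXA2 was 17448 bp from the nearest Molm13 peak.

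HL-60 had 3 peaks in HOXA, of 385, 423 and 1508 bp against a list median of 893 bp. All 2.32 kb of them were also covered in Molm13 and in OCI-AML3. The peak at chr7:27183988-27184410 had a fold of 4.38 and a −log10 q of 4.08, and it lay in the HOXA11 gene body, 813 bp from the nearest HOXA11 start site and 97 bp from a start of HOXA11-AS, its antisense RNA. The other peaks, at chr7:27160544-27162051 and chr7:27188753-27189137, had folds of 3.06 and 2.88, both below the list median of 3.60, and q-values of 0.0531 and 0.0809. HOXA9 was 3406 bp, HOXA7 2608 bp and HOXA10 3727 bp from the nearest HL-60 peak, and HOXA3, HOXA4, HOXA6 and HOXA13 were between 6463 and 29764 bp away. In K562 the marked HOXA genes of the other lines lay between 161541 and 230852 bp from the nearest peak, the shortest distance being that of HOXA13 and the longest that of HOXA4. No K562 peak lay in the cluster or within 100 kb of it.

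In K562, the peaks at HOXB2, HOXB4, HOXB9 and HOXB6 were in the top 10% of that list by fold. The peak at HOXB2, chr17:48540421-48549943, was 9.52 kb wide with a fold of 5.71, which was 2.00 times the list median and rank 47 of 37424, and a −log10 q of 17.7. HOXB4, a gene that drives expansion of blood stem cells when forced, lay in a peak of 12.8 kb at chr17:48573369-48586203 with a fold of 4.47 and a −log10 q of 11.7. HOXB9 lay in a peak of 9.63 kb at chr17:48623334-48632961 with a fold of 4.71 and a −log10 q of 11.7. HOXB6 lay in a peak of 3.58 kb at chr17:48602532-48606107 with a fold of 4.35 and a −log10 q of 9.85. HOXB7 lay in a peak of 3.78 kb at chr17:48608604-48612383 with a fold of 3.51 and a −log10 q of 6.05. HOXB3, whose 12 annotated start sites spread over much of the cluster, was counted through 9 of them at 3 peaks, and its canonical start lay 4038 bp from the nearest peak. HOXB5 was 7576 bp, HOXB8 was 1096 bp and HOXB1 was 2122 bp from a K562 peak.

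In OCI-AML3, 3 of 7 HOXB peaks were at least 5 kb wide, and the folds lay near the list median. Those of 274, 911 and 1037 bp were narrower than the list median of 1282 bp. The 7 peaks had folds of 2.61 to 3.11, and 2 of 7 were above the list median of 2.95, whereas 8 of 13 HOXB peaks of K562 were above the median of their own list. HOXB2 lay in a peak of 7.41 kb at chr17:48541548-48548952 with a fold of 2.75 and a −log10 q of 2.40. HOXB4 lay in a peak of 6.74 kb at chr17:48572896-48579637 with a fold of 2.98 and a −log10 q of 3.13. HOXB5 and 1 of 4 start sites of HOXB6 lay in a peak of 12.2 kb at chr17:48585657-48597838 with a fold of 2.84 and a −log10 q of 2.80, and the canonical start of HOXB6 was 5676 bp away. HOXB7 was 82 bp from a peak of 274 bp at chr17:48610662-48610935 with a fold of 2.72 and a −log10 q of 3.17. HOXB3 was counted through 8 of 12 start sites at 3 peaks. At a q-value below 0.001, 3 of the 6 HOXB genes kept their call (HOXB3, HOXB4 and HOXB7). The same 3 were left when each list was cut to its 20772 most significant peaks, the length of the HL-60 list. In the same settings K562 kept all 6. HOXB9 was 15423 bp from the nearest OCI-AML3 peak.

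HOXB was without a marked member in HL-60 and Molm13. HL-60 had 0 peaks in the cluster, and the HOXB genes marked in other lines were between 58430 and 141642 bp from its nearest peak. Molm13 had 1 peak in the cluster span, of 1150 bp at chr17:48721187-48722336 with a fold of 3.61 and a −log10 q of 2.20, 182 bp from a start site of PRAC1, a gene between HOXB9 and HOXB13. The HOXB genes marked in other lines were between 87615 and 176078 bp from the nearest Molm13 peak. HOXB13 was not marked in any line, and its distance was shortest in Molm13, at 6414 bp.

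HOXC was marked at start sites only in K562, which had 7 peaks there. HOXC4 was counted through 1 of its 3 start sites, at a peak of 3.30 kb at chr12:54016882-54020180 with a fold of 4.73, 1.66 times the list median, and a −log10 q of 9.94. The canonical HOXC4 start lay 25226 bp away. HOXC5, not counted from its only GENCODE start site (4441 bp away), shares the RefSeq start printed above with HOXC4, and that start lay inside the same peak. All 3 start sites of HOXC9 lay at peaks, the stronger being 3.80 kb at chr12:53994236-53998030 with a fold of 3.97 and a −log10 q of 9.28. HOXC6 had 2 of 4 start sites at a peak, 1 in that same peak and the canonical one in a peak of 467 bp at chr12:54028143-54028609 with a fold of 2.31 and a q-value of 0.0506. HOXC8 and HOXC10 had part of their bodies under K562 peaks, 33.1% and 41.2% of the canonical transcript, while their nearest start sites were 2043 and 1259 bp away.

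In the other lines, HOXC held small peaks away from the counted start sites. Molm13 and OCI-AML3 each had 1 peak, of 314 bp at chr12:54017885-54018198 with a fold of 3.33 and of 518 bp at chr12:54017895-54018412 with a fold of 2.48, and both lay entirely within the K562 peak at HOXC4. The nearest HOXC4 start site was 954 and 964 bp from them, outside the limit of 500 bp. HOXC6 was 1988 and 1998 bp and HOXC9 was 17724 and 17734 bp away in these lines. HL-60 had 2 peaks in HOXC, 1 of them at chr12:53983993-53984430 with a fold of 4.01 and a −log10 q of 3.10 at the start of HOXC-AS3 and 635 bp from the nearest HOXC10 start site. HOXC4, HOXC6 and HOXC9 were 32501, 6194 and 10465 bp from an HL-60 peak. HOXC11, HOXC12 and HOXC13 were unmarked in all 4 lines, with distances between 5279 and 79064 bp.

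**Figure D3:**
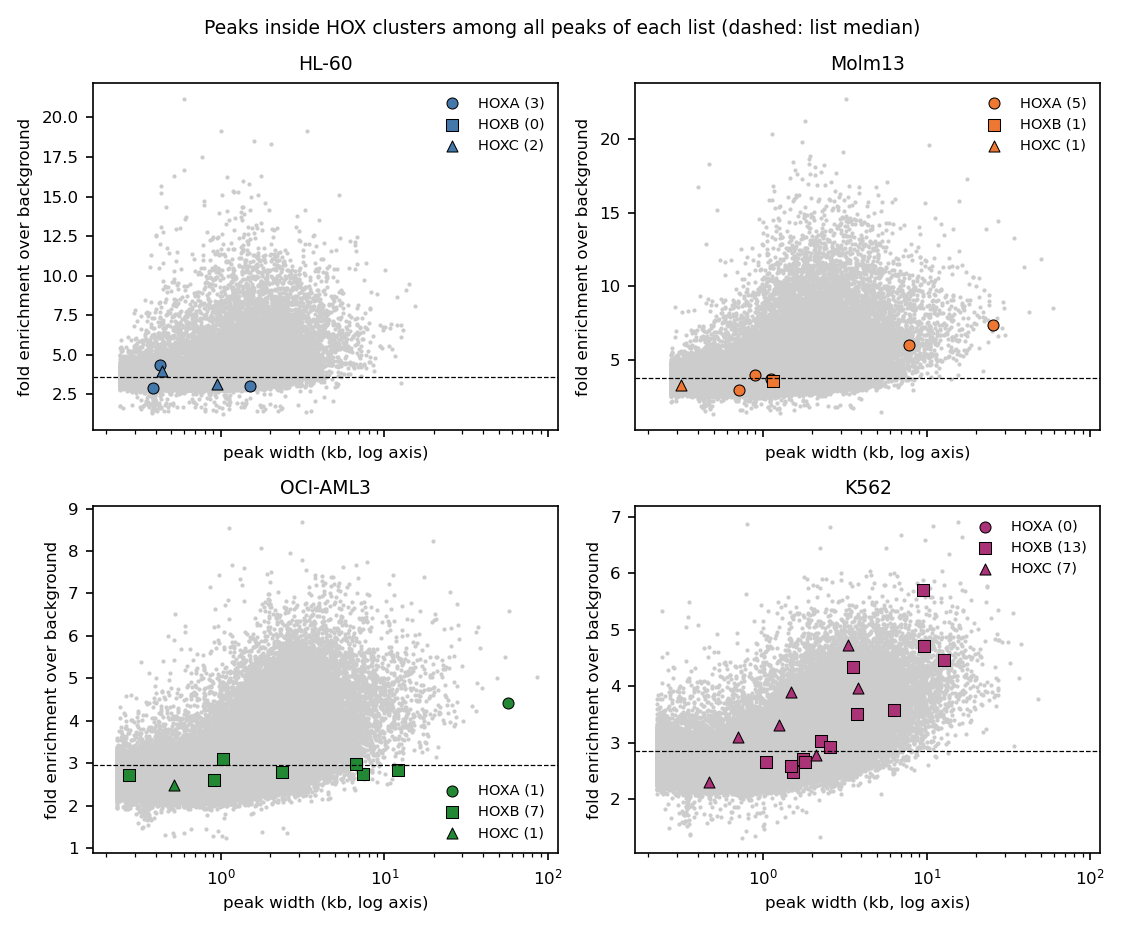
Width (x axis, kb, log axis) against fold enrichment over background (y axis, linear and scaled per panel) for every peak of each list in grey, with peaks inside the HOXA, HOXB and HOXC clusters as circles, squares and triangles and the list median as a dashed line. The HOXA domains of Molm13 (25.4 kb) and OCI-AML3 (57.1 kb) lie far to the right at folds of 7.42 and 4.42, the OCI-AML3 HOXB peaks lie near the dashed line, and the HOXB2 peak of K562 stands near the top at 5.71.

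None of the 9 HOXD genes (HOXD1, HOXD3, HOXD4, HOXD8, HOXD9, HOXD10, HOXD11, HOXD12 and HOXD13) had a peak at a start site, and no list had a peak in the cluster. Their start sites were between 72578 and 127533 bp from the nearest peak. LNPK and MTX2, which flank the cluster on either side, were marked in all 4 lines. In HL-60 and OCI-AML3 the peaks at these genes were the nearest to the cluster, and in Molm13 and K562 a peak between LNPK and HOXD13 was nearer, at 72999 and 72578 bp. Within 100 kb of HOXD there were 8 peaks in K562, 2 in OCI-AML3 and 3 in Molm13, against 2 in HL-60. In the same order of lines there were 0, 1, 1 and 0 around HOXA, 11, 0, 0 and 3 around HOXB, and 1, 0, 0 and 0 around HOXC. Of the 11 K562 peaks around HOXB, 10 were on the HOXB1 side. Of the 15 flanking genes of the 4 clusters, 8 were marked in all lines (SKAP2, HIBADH, CALCOCO2, ATP5MC2, CBX5, HNRNPA1, MTX2 and LNPK), and EVX1, EVX2, PRAC2 and TTLL6 in none. SMUG1, a DNA repair gene, was marked in Molm13, OCI-AML3 and K562, and PRAC1 and SKAP1 in Molm13 only.

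The clusters also hold long non-coding RNA genes. Of 19 such genes, 6 were marked in K562, 6 in OCI-AML3 and 5 in Molm13, with 2 in HL-60 (31.6%, 31.6%, 26.3% and 10.5%), against 22.0%, 22.0%, 20.3% and 14.9% of 18866 annotated long non-coding RNA genes. HOXA11-AS was marked in HL-60, Molm13 and OCI-AML3. HOTTIP and HOXA10-AS were marked in Molm13 and OCI-AML3, HOXA-AS2 and HOXA-AS3 in Molm13 only, and HOTAIRM1 in OCI-AML3 only, at a peak of 944 bp with a fold of 2.72. HOXB-AS1 and HOXB-AS3 were marked in OCI-AML3 and K562, and HOXB-AS2, HOXB-AS4, HOXC-AS1 and HOXC-AS2 in K562 only. HOXC-AS3 was marked in HL-60 only. HOTAIR, which lies in HOXC, HOXC13-AS, FLJ12825, and the HOXD genes HAGLR, HAGLROS and HOXD-AS2 were marked in none. Many of these start sites share the peaks described for the coding genes.

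The clusters also hold microRNA genes. Of 6 hairpins, 2 overlapped a peak in K562, 1 in OCI-AML3 and 1 in Molm13, with 0 in HL-60, against 12.5%, 12.2%, 10.6% and 6.47% of 1562 annotated hairpins. The mature 5p sequences of the 3 that did are shown because MIR196B and MIR196A1, which lie in different clusters and were marked in different lines, have the same seed. The seed, bases 2 to 8, is in capitals, and the sequences are from RefSeq.
hsa-miR-196b-5p: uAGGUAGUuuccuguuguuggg
hsa-miR-196a-5p: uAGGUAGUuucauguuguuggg
hsa-miR-10a-5p: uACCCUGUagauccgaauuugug

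MIR196B, at chr7:27169480-27169563 between HOXA9 and HOXA10, lay in the widest HOXA peak of both Molm13 and OCI-AML3. MIR196A1, at chr17:48632490-48632559 near HOXB9, lay in the K562 peak of HOXB9, and in OCI-AML3 it was 21555 bp from a peak. MIR10A, at chr17:48579838-48579947 upstream of HOXB4, lay in the K562 peak of HOXB4, and the OCI-AML3 peak over HOXB4 ended 201 bp short of it. MIR196A2, which gives the same mature sequence as MIR196A1, was in no peak and was nearest in K562, at 1933 bp. MIR615 in HOXC and MIR10B in HOXD were in no peak, the latter at least 117925 bp from one in every list.

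HOX proteins bind DNA with cofactors of the MEIS, PBX and PKNOX families. Of 8 cofactor genes, 4 were marked in K562, 5 in OCI-AML3 and 5 in Molm13, against 3 in HL-60. These are shares of 50%, 62.5%, 62.5% and 37.5%, beside 55.9%, 57.7%, 53.9% and 44.7% of all protein-coding genes. MEIS2, PBX2 and PKNOX1 were marked in all 4 lines. MEIS1 lay in a peak of 14.5 kb with a fold of 9.05 in Molm13, of 19.8 kb with a fold of 5.13 in OCI-AML3 and of 2.27 kb with a fold of 3.13 in K562, and it was 50786 bp from a peak in HL-60. PBX3 was marked in Molm13 (16.8 kb, fold 5.31) and OCI-AML3 (24.3 kb, fold 4.19), the lines in which HOXA9 was marked. MEIS3, PBX4 and PKNOX2 were marked in no line.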

How the data were processed

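Per the labels and the study's methods, H3K27ac chromatin from each line was immunoprecipitated with 1 antibody, and the authors trimmed reads with Trim Galore 0.4.5, aligned them to hg38 with Bowtie2 2.3.4, kept uniquely mapped reads and called broad peaks with MACS2 2.1.1 at a q-value of 0.05. Versions are those of the submitters' processing notes. Which control library was given to the caller is not given in the sources used here. The deposited lists give, for each peak, a score, the fold enrichment (a ratio over background) and both significance values on a −log10 scale (p-value, q-value), with 1 library per list. The largest q-value in the lists lay between 0.0947 and 0.0995, above the stated limit. Fold depends on depth and background, so it was compared only within a list. The dCas9 list was used only for distances to the clusters.

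From these lists, start sites and gene spans were taken from GENCODE v44 on hg38, and peaks on the autosomes, X and Y were used. A gene was counted as marked when any start site lay within 500 bp of a peak. Its values are those of the strongest such peak by fold. A peak was inside a cluster when it shared 1 bp with the span of the members. Coverage was the length under peaks. Shares carry Wilson 95% intervals, and no test was made. Named genes were all members, with values for those marked in 1 to 3 lines. The other named genes come from lists of cluster RNAs, flanking genes, markers, cofactors, activators, Polycomb and other homeobox genes, of which 3 are not reported here and were left out of the counts. The members and lists were chosen with earlier results of these data known. Alternatives changed the distance, the start sites, the q-value limit, the list length, the cluster span, peak merging and the flank. SciPy 1.17.1, pandas 2.3.3, NumPy 2.4.6, matplotlib 3.10.9 and seqkit 2.13.0 were used under Python 3.11.15, and the procedure was tested on simulated peaks.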

Additional observations from a re-analysis of the deposited data

How the results depend on the processing

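Of 168 alternative values for 52 results, 133 stayed within 1.5 times the value reported and 35 moved further. Many of the 133 could not have moved, so their number does not measure stability. A result of 0 cannot rise with a stricter q-value, a shorter list or merged peaks. The span of canonical transcripts gave the same covered bases in all 16 cases. The total of marked members per line moved past 1.5 times in HL-60 only, from 0 to 2 (HOXA11 and HOXC10) at a distance of 2000 bp. By cluster, marked HOXB genes of OCI-AML3 went from 6 to 3 with q below 0.001 and with lists of equal length, and marked HOXC genes of Molm13 and OCI-AML3 from 0 to 2 (HOXC4 and HOXC6) in each line at 2000 bp. With q below 0.001, peaks inside HOXA fell to 1 in HL-60 and 3 in Molm13, inside HOXB to 8 in K562, 3 in OCI-AML3 and 0 in Molm13, and inside HOXC to 0 in OCI-AML3 and 0 in Molm13, against 1 in HL-60. Covered bases then were 423 for HOXA in HL-60 (also 423 at q below 0.05), 0 and 8053 for HOXB in Molm13 and OCI-AML3, and 0, 0 and 438 for HOXC in OCI-AML3, Molm13 and HL-60. With lists of equal length, covered bases were 0 for HOXB in Molm13, 8053 for HOXB in OCI-AML3, and 0 for HOXC in Molm13 and in OCI-AML3. A flank of 200 kb gave 2 peaks around HOXA in Molm13 and 1 in K562, then 22, 6, 8 and 8 around HOXB and 9, 3, 1 and 1 around HOXC in K562, OCI-AML3, Molm13 and HL-60, and 14 around HOXD in K562. A flank of 50 kb gave 0 around HOXD in all 4 lines. Fewer peaks, or a longer or shorter flank, follow from the construction of these settings. Read depth was unknown, so an unmarked gene was not detectable as marked at the depth of its list, which for HL-60 held the fewest peaks. No paired analysis was possible because each line had 1 library.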

Other observations

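Of all protein-coding genes, 55.9% were marked in K562, 57.7% in OCI-AML3 and 53.9% in Molm13, against 44.7% in HL-60. Of 15 genes tied to activation of HOX transcription, 11 were marked in K562, 12 in OCI-AML3 and 11 in Molm13, against 9 in HL-60 (73.3%, 80%, 73.3% and 60%, in the same order of lines). KMT2A, DOT1L, PSIP1, MLLT10, AFF1, KAT7, NPM1 and NUP98 were marked in all 4 lines, and CDX1, CDX2 and CDX4, homeobox activators of HOX genes in the embryo and in some leukaemias, in none. Of 17 genes of Polycomb complexes and their antagonists, 17 were marked in K562, 16 in OCI-AML3 and 15 in Molm13, against 13 in HL-60 (100%, 94.1%, 88.2% and 76.5%), including EZH2, EED and SUZ12 in all lines. CBX7 was marked in K562 only.

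Of 48 homeobox genes outside the 4 clusters, 8 were marked in K562, 7 in OCI-AML3 and 6 in Molm13, against 5 in HL-60, which is 16.7%, 14.6%, 12.5% and 10.4%, below the shares of all protein-coding genes. HHEX, HLX and IRX5 were marked in all 4 lines and 38 genes in none. DLX1 and DLX2 were marked in Molm13, OCI-AML3 and K562, IRX3 in the 3 lines other than K562, and PITX1 in HL-60 and K562. MNX1 and OTX1 were marked in K562 only and LHX2 in OCI-AML3 only.

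The dCas9 list of K562 cells with LTR2B sgRNAs had 0 peaks inside a HOX cluster and 0 within 100 kb of one. The nearest dCas9 peak was 0.924 Mb from HOXD, 1.69 Mb from HOXB, 2.31 Mb from HOXA and 12.1 Mb from HOXC.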
